A study of Sus scrofa with 180 samples.

Results

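MYL2, MYL6B and TNNI1 are genes of the slow-twitch contractile apparatus, and each was measured here by 1 probe of a pig muscle microarray. A probe was taken when the gene tables of the study, used only as a map from probe to gene, gave it one of these symbols. The tables at hand name 3967 of the 15198 probes on the array, for 3481 genes, and the 3 probes of MYL2, MYL6B and TNNI1 are all that carry these names there. They list probes that the study itself called different between the muscles on these same arrays, and all 3 stand in the table of genes higher in Semimembranosus, so the direction of that difference is not independent of the choice. The copy of that table is incomplete, and a further TNNI1 probe that it counts was not analysed here.

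The muscles were the Longissimus (LM) of the back and the Semimembranosus (SM) of the ham, both sampled in the same 90 pigs and hybridised singly to single-colour arrays. The animals were not modified and came from half-sib families descending from a cross of 2 sire lines, FH016 of Pietrain type and the synthetic FH019. All were NN at the HAL locus and rn+rn+ at the RN locus, which the study gives as homozygous wild type. The other alleles of these loci, known to disturb pig muscle, were thus not carried by any group. Superficial samples of both muscles were taken with a trocar from each carcass shortly after death, and a single operator took all samples of a given muscle. The 90 arrays of LM lay on 21 slides scanned on 10 days and the 90 of SM on 14 slides scanned on 5 days, with no slide or day in common, so slide, scan day and muscle cannot be told apart. The median processed signal of an array was 216 in LM and 170 in SM (medians over arrays). Each array's log2 values were therefore set relative to its own median over the 11000 probes that passed the checks on spot quality. After failed spots and outlying values were removed, 10987 probes were kept.

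Myosin, the motor protein of muscle, carries a regulatory and an alkali light chain on each heavy chain. MYL2 encodes the regulatory light chain found in slow skeletal fibres and in the ventricle of the heart, and MYL6B encodes an alkali light chain of slow fibres that non-muscle cells also use. TNNI1 encodes the slow skeletal form of troponin I, the subunit of the thin filament that holds contraction off until calcium binds troponin C. Slow fibres contract slowly, rely on mitochondria and myoglobin, and resist fatigue, and pig LM and SM are both made mostly of fast fibres.

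Every value given below for these genes comes from a single oligonucleotide of 60 bases, so its sequence is the identity of the measurement. The whole TNNI1 probe and the first 30 bases of the MYL2 and MYL6B probes are printed 5′ to 3′, with the first 15 bases in capitals because the C bases in that window were counted.
MYL2: ACTTTCCATGAAGGCagtgtatcagctagt
MYL6B: AAGTTCCTGCCGCTAggaggccacctattg
TNNI1: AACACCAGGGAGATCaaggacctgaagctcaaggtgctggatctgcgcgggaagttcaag
The window held 4 C in the MYL2 probe, 5 in the MYL6B probe and 4 in the TNNI1 probe, where the median over the 15198 probes was 3. Probes rich in C in this window (8 or more C) and poor in C (2 or fewer) were compared on each array, and the resulting index averaged -0.37 in LM and 0.38 in SM on the log2 scale. The 3 probes belong to neither class. No other probe of the array shares their sequence or the source sequence they were designed on. The MYL6B probe held AATAAA, the usual signal for the end of a messenger RNA, further along its own strand than the bases shown, a motif present on that strand in 8.70% of all probes. The MYL2 and TNNI1 probes held it on neither strand. The gene names rest on the annotation of the study, since no sequence of the pig genes was used here.

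All 3 probes were read well above background on all 180 arrays and were never saturated. The MYL2 spot had a processed signal from 1555 to 7839 in LM, with a median of 3548, and from 1030 to 7828 in SM, with a median of 3550. The MYL6B spot ranged from 12319 to 125440 in LM, with a median of 47044, and from 16514 to 132859 in SM, with a median of 46490. The TNNI1 spot ranged from 13382 to 44744 in LM, with a median of 25263, and from 8144 to 47998 in SM, with a median of 23619. As scanned, then, the spots of the 2 muscles covered nearly the same range, and the medians of LM and SM lay close together for each gene. Brightness depends on the probe as well as on the messenger RNA, so these signals are not compared between genes.

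**Figure D1:**
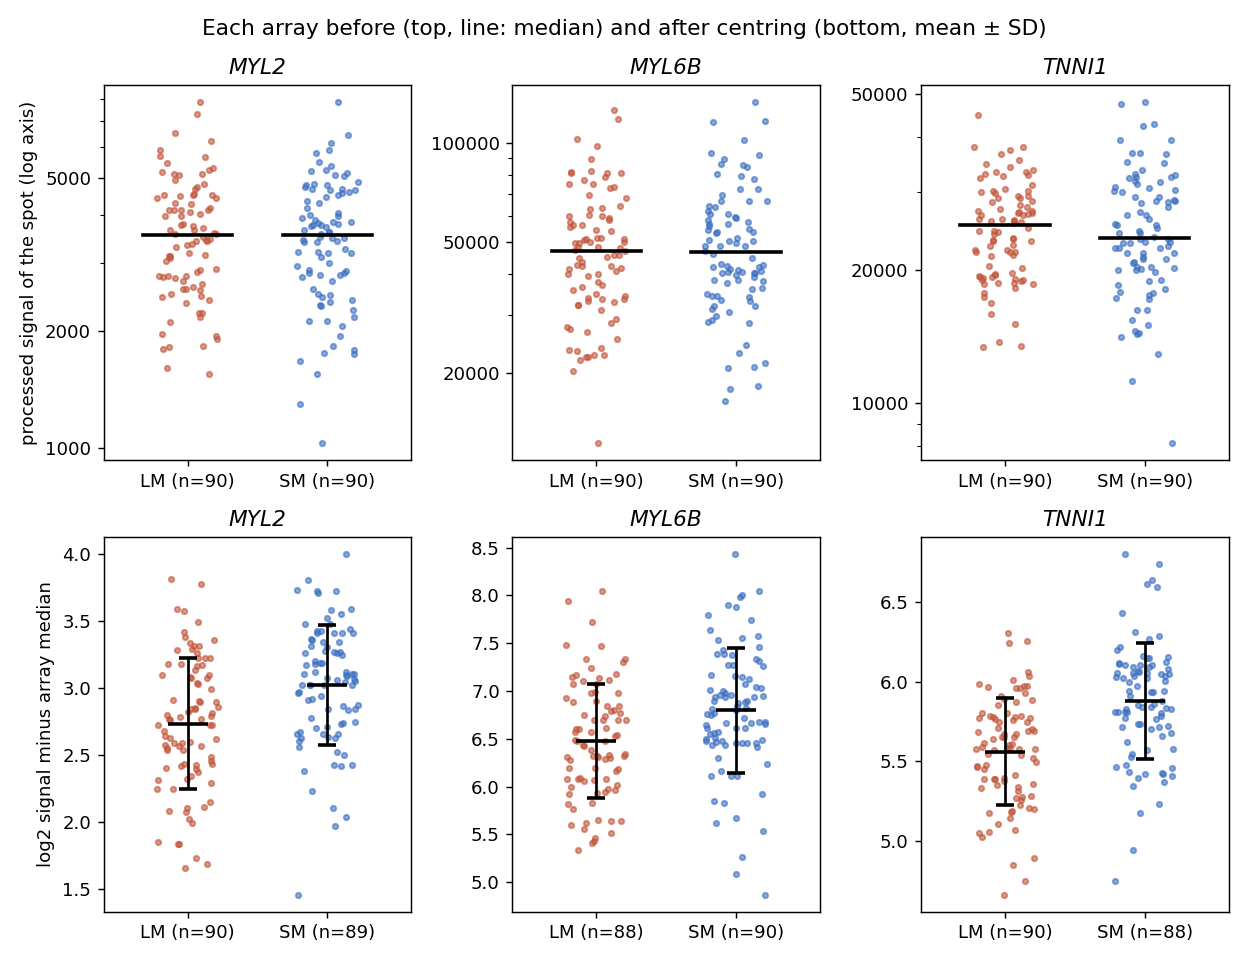
Processed signal of the MYL2, MYL6B and TNNI1 spots on each array (top, log axis, with the median as a line) and the log2 signal minus the array median (bottom, with mean ± SD), for LM in red and SM in blue. The median signals are close in both muscles (3548 and 3550 for MYL2), while after centring the means of SM lie above those of LM and the points overlap widely.

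Relative to the array median, MYL2 was higher in SM than in LM. Its centred log2 value ran from 1.66 to 3.81 in LM, with a median of 2.77, and from 1.46 to 4.00 in SM, with a median of 3.06. LM arrays averaged 2.73 ± 0.49 (SD, n = 90) and SM arrays 3.02 ± 0.44 (SD, n = 89), 1 SM value having been removed as more than 3 SD from the probe mean. SM values were shifted up along nearly the same range, and 177 of 179 values lay in the range covered by both muscles.

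MYL6B was also higher in SM after centring. It ran from 5.33 to 8.05 in LM, with a median of 6.46, and from 4.87 to 8.44 in SM, with a median of 6.81. LM arrays averaged 6.48 ± 0.60 (SD, n = 88) and SM arrays 6.80 ± 0.65 (SD, n = 90), with 1 LM value removed as outlying and 1 LM spot not uniform. Of the values kept, the highest and the lowest both belonged to SM, and the muscles overlapped for 173 of 178 values.

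TNNI1 was the least variable of the 3 and was higher in SM as well. It ran from 4.66 to 6.31 in LM, with a median of 5.59, and from 4.75 to 6.80 in SM, with a median of 5.89. LM arrays averaged 5.56 ± 0.33 (SD, n = 90) and SM arrays 5.88 ± 0.36 (SD, n = 88), with 2 SM values removed as outlying. The top of the SM range lay above every LM array, and 169 of 178 values were in the shared range.

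The 3 genes were higher in SM by similar amounts. In the fit of limma over all 10987 probes, LM minus SM on the log2 scale was -0.29 for MYL2 (SE 0.07, adjusted p 6.88e-05), -0.32 for MYL6B (SE 0.09, adjusted p 0.000856) and -0.32 for TNNI1 (SE 0.05, adjusted p 1.58e-08), after Benjamini-Hochberg adjustment over all probes. The ratio of SM to LM was thus 1.22 for MYL2, 1.25 for MYL6B and 1.24 for TNNI1. All 3 probes passed the test in the direction of SM, where 47.7% of all probes did so, 35.7% passed in the direction of LM and 83.5% in either, and the table that named them had already been chosen on that direction. The median probe of the array itself shifted by -0.07, and relative to it the differences were -0.22 for MYL2, -0.26 for MYL6B and -0.25 for TNNI1. Many probes were shifted further towards SM: MYL2 stood at the percentile of 30.1, MYL6B at 27.0 and TNNI1 at 27.9 of the differences ordered from the lowest.

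Pig by pig, MYL2 was higher in SM in 62 of 89 pigs, MYL6B in 63 of 88 and TNNI1 in 69 of 88. The difference SM minus LM within a pig averaged 0.29 ± 0.60 (SD, n = 89) for MYL2, 0.35 ± 0.81 (SD, n = 88) for MYL6B and 0.31 ± 0.47 (SD, n = 88) for TNNI1 on the log2 scale. Single pigs went far in both directions, from -2.11 to 2.25 for MYL6B. The difference between one gene and another on the same array, which does not depend on the centring, hardly moved between the muscles: from LM minus SM it shifted by 0.05 for MYL2 minus MYL6B, 0.01 for MYL2 minus TNNI1 and -0.05 for MYL6B minus TNNI1, with SDs between arrays of 0.31 to 0.51. The call for MYL6B was lost with the C-rich index as a covariate (-0.13, adjusted p 0.419 in limma) and when the scan day was a random block (-0.31, adjusted p 0.0584 in limma). The shift between the muscles appeared with the centring on the array median, and with the centring on usable spots only it was -0.20 for MYL2, -0.24 for MYL6B and -0.23 for TNNI1.

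Across pigs the 3 genes were positively correlated with each other within each muscle. The question was whether a pig with more of one slow-fibre transcript also had more of the others, a relation that the tables of the study did not select on. With 1 array of each muscle from each pig, a relation across pigs cannot be told apart from one across samples or arrays. In LM, MYL2 and MYL6B correlated with Pearson's r of 0.64 (95% interval 0.50 to 0.75, n = 88) and Spearman's rho of 0.64. MYL2 and TNNI1 gave r of 0.72 (0.60 to 0.81, n = 90) and rho of 0.71, and MYL6B and TNNI1 gave r of 0.56 (0.40 to 0.69, n = 88) and rho of 0.55. The pair of the regulatory light chain and troponin I was thus the closest of the 3 in LM, although the intervals overlap.

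In SM the relation was as close. MYL2 and MYL6B gave r of 0.61 (0.46 to 0.73, n = 89) and rho of 0.49, MYL2 and TNNI1 gave r of 0.70 (0.57 to 0.79, n = 88) and rho of 0.64, and MYL6B and TNNI1 gave r of 0.76 (0.65 to 0.83, n = 88) and rho of 0.65. Each of these 6 Pearson and 6 Spearman coefficients had a two-sided permutation p of 1e-05, the smallest that 100000 permutations can give, and an adjusted p of 1.5e-05 over the 9 relations computed. No pair was shown to differ between the muscles: r in LM minus r in SM was 0.07 for MYL2 with MYL6B, 0.04 for MYL2 with TNNI1 and -0.17 for MYL6B with TNNI1, with permutation p values of 0.516, 0.547 and 0.0883 (adjusted 0.547, 0.547 and 0.265) when the muscles of a pig were swapped.

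**Figure D2:**
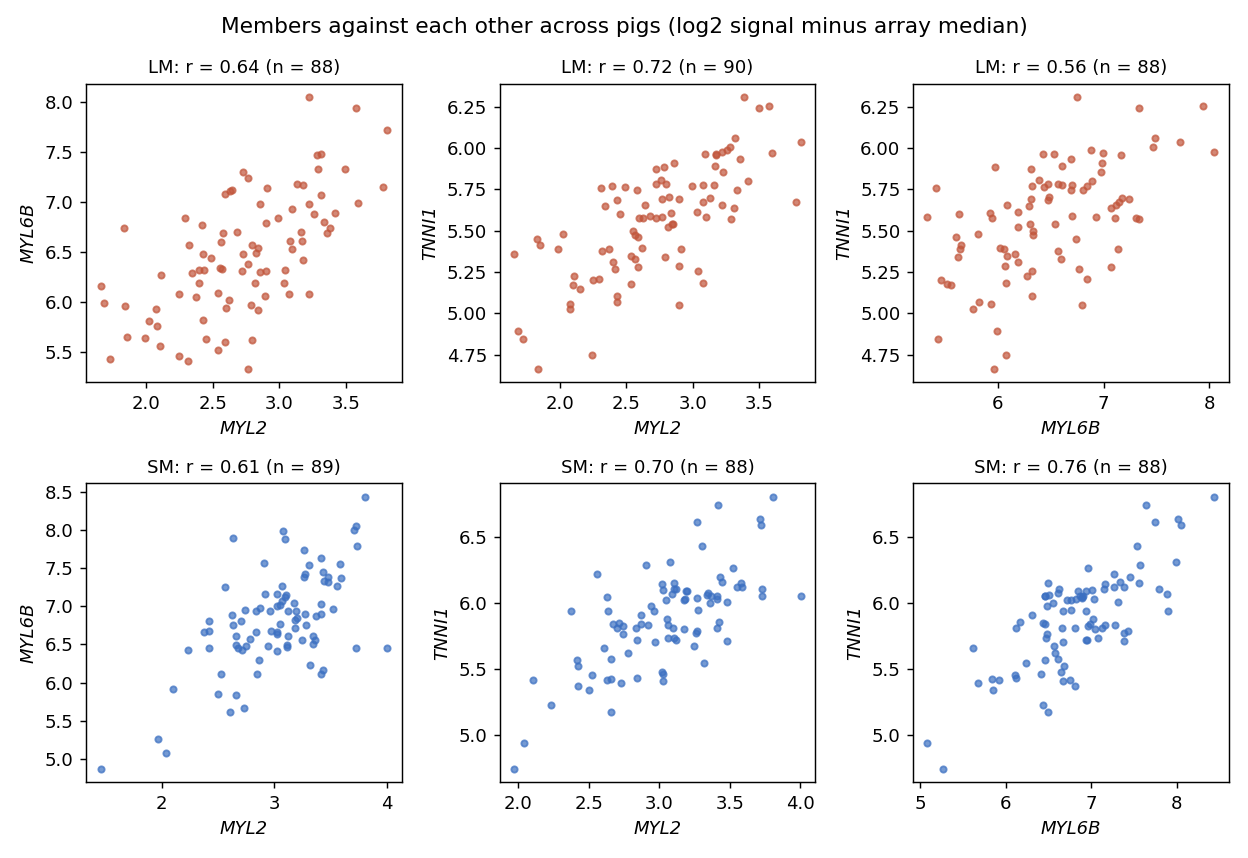
MYL2, MYL6B and TNNI1 plotted against each other across pigs, as log2 signal minus the array median, with LM in the upper row and SM in the lower row and 1 point for each array. Points run from lower left to upper right in all panels, with r from 0.56 to 0.76, and a few SM arrays lie at the lower end of all 3 genes.

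The correlations stayed within slides and within scan days. Taken as deviations from slide means, with pigs permuted inside slides, r in LM was 0.61 for MYL2 with MYL6B, 0.61 for MYL2 with TNNI1 and 0.47 for MYL6B with TNNI1, and in SM it was 0.62, 0.69 and 0.72 in the same order. Taken as deviations from scan day means, r was 0.63, 0.68 and 0.53 in LM and 0.60, 0.70 and 0.73 in SM. Without the 2 arrays farthest from the median of the gene on the x axis, r was 0.65, 0.71 and 0.52 in LM and 0.52, 0.64 and 0.71 in SM. Over these forms of the data the adjusted permutation p of Pearson's r ranged from 1.5e-05 to 6e-05.

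The extremes were partly shared. Of the 9 SM arrays with the lowest value of each gene, 4 were the same for all 3 genes, and of the 9 with the highest, 3 were the same. In LM, 1 of the lowest 9 and 3 of the highest 9 were common to the 3 genes. The values removed as outlying followed the same pattern in SM: the 2 SM arrays removed for TNNI1 ranked lowest and second lowest for MYL2 and were among the lowest 4 for MYL6B. Both of these arrays lay on the same slide and were scanned on the same day.

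Between the muscles of a pig no correlation passed the test. The correlation between the muscles over pigs was r of 0.18 (95% interval -0.03 to 0.38, n = 89) and rho of 0.18 for MYL2, r of 0.13 (-0.08 to 0.33, n = 88) and rho of 0.14 for MYL6B, and r of 0.11 (-0.10 to 0.31, n = 88) and rho of 0.14 for TNNI1. The permutation p values of r were 0.0846, 0.219 and 0.305 (adjusted 0.109, 0.247 and 0.305), and those of rho were 0.0863, 0.183 and 0.199 (adjusted 0.111, 0.199 and 0.199) against a threshold of 0.05. With slide means removed r was 0.04 for MYL2, 0.14 for MYL6B and 0.05 for TNNI1, and with scan day means removed it was 0.09, 0.15 and 0.09. Without the 2 pigs farthest from the LM median r was 0.19, 0.05 and 0.18. Over 10391 probes the correlation between the muscles had a median of 0.07, with 90% of probes between -0.13 and 0.28, so these genes lay inside the bulk of the array in this respect. The upper bounds of the intervals first given, 0.31 to 0.38, lie below the lower bounds of every correlation within a muscle, 0.40 to 0.65. With slide means removed they overlap: MYL6B between the muscles reached up to 0.34, and MYL6B with TNNI1 in LM down to 0.29. Without the 2 farthest pigs or arrays, MYL2 between the muscles reached up to 0.39, and MYL6B with TNNI1 in LM down to 0.35. The measures are also unlike, since a correlation within a muscle relates 2 probes of the same array. One between the muscles relates 2 arrays that share no slide or scan day. The difference itself was not tested, and the intervals first given leave out the values removed as outlying. With those values kept, r between the muscles for MYL6B was 0.21 (0.01 to 0.40, n = 89), with a permutation p of 0.0442 (adjusted 0.0568).

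**Figure D3:**
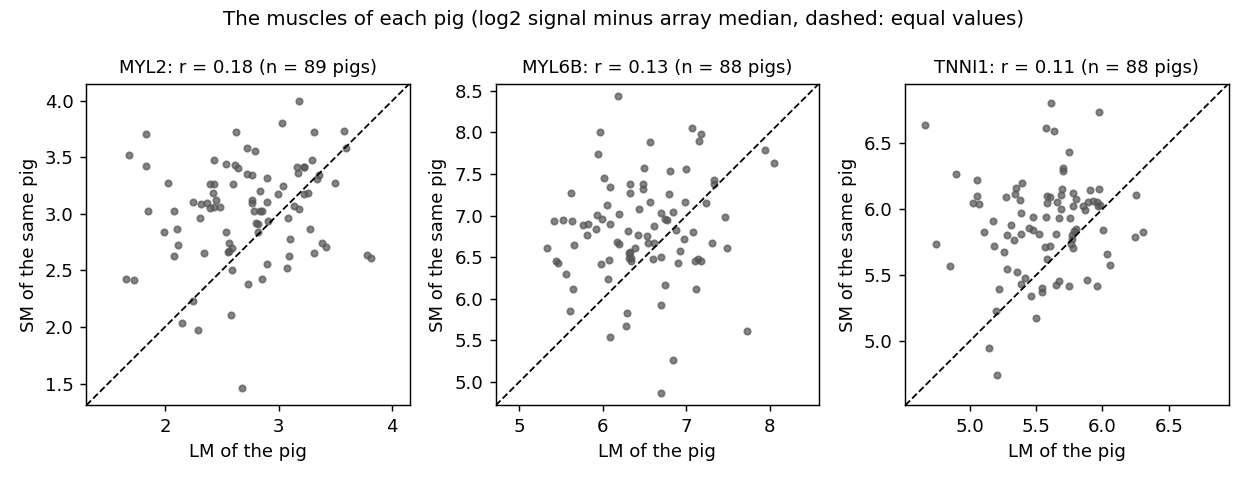
The SM value of each pig against its LM value for MYL2, MYL6B and TNNI1, as log2 signal minus the array median, with 1 point for each pig and equal values on the dashed line. Most points lie above the line (69 of 88 for TNNI1), and the clouds have little slope (r from 0.11 to 0.18).

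These genes varied more from array to array than most. Each pig gave 1 array of each muscle, so differences between pigs cannot be told apart here from those between samples, slides or arrays. The SD was 0.49 in LM and 0.44 in SM for MYL2, 0.60 and 0.65 for MYL6B, and 0.33 and 0.36 for TNNI1, where the median SD of all probes was 0.28 in LM and 0.29 in SM. That placed MYL6B at the percentile of 93.9 in LM and 96.7 in SM, MYL2 at 88.3 and 83.6, and TNNI1 at 66.1 and 71.1. On the linear scale, the highest LM array exceeded the lowest by 4.45 times for MYL2, 6.55 times for MYL6B and 3.12 times for TNNI1, and the same ratio in SM was 5.83, 11.9 and 4.16, all without the values removed as outlying. With them put back, a choice made after seeing the data, LM replicate 32 took MYL6B in LM to 11.9, the same as in SM, and in SM the ratio was 7.21 for MYL2 (replicate 47) and 6.35 for TNNI1 (replicates 36 and 47). The spread was not shown to differ between the muscles: over pigs with both values, the SD in LM divided by that in SM was 1.1 for MYL2, 0.95 for MYL6B and 0.92 for TNNI1, with permutation p of 0.392, 0.667 and 0.492 (each adjusted to 0.667) after swapping the muscles of a pig. In these tissue samples, fewer slow fibres and less of the transcript in each fibre cannot be told apart.

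Part of the spread lay between slides. In LM, slides held 37.7% of the variance of MYL2 (adjusted p 0.0115, limma F test), 24.8% of that of MYL6B (adjusted p 0.253) and 31.7% of that of TNNI1 (adjusted p 0.0618), against a median of 35.9% over all probes. In SM they held 13.9%, 21.2% and 24.8% (adjusted p 0.565, 0.194 and 0.118, limma F test), against a median of 19.6%. Only MYL2 in LM passed the test, where 53.7% of all probes did so in LM and 15.0% in SM. Over the 10 scan days of LM the mean of MYL2 ranged from 2.21 to 3.08.

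Each of the 3 genes had the others, and the mitochondrial gene SURF1, among the probes that followed it most closely across pigs. Likeness was the mean over LM and SM of Pearson's r with the probe of MYL2, MYL6B or TNNI1, ranked over the probes with at least 60 shared arrays in each muscle (10544 to 10570 of them), and is given as a description. For MYL2 the 5 most alike named probes were SURF1 (0.77), an assembly factor of cytochrome c oxidase, LDHB (0.71), the heart form subunit of lactate dehydrogenase, TNNI1 itself (0.71), MRPS6 (0.70), a protein of the mitochondrial ribosome, and ATP2A2 (0.68), the calcium pump of slow and cardiac muscle. They ranked from 2 to 8 of 10566 probes, and 3 probes with no name in the tables at hand ranked above the last of them. LDHB reached r of 0.70 in LM and 0.72 in SM.

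For MYL6B the most alike named probes were C9 (0.78), a complement component, TNNI1 (0.66), SURF1 (0.65), MRPS6 (0.63) and MYL2 (0.63). For TNNI1 they were FANCA (0.81), a DNA repair protein, ATP2A2 (0.77), SURF1 (0.73), MYL2 (0.71) and NKAIN1 (0.68). SURF1 was thus among the 5 for all 3 genes, and MYL2, MYL6B and TNNI1 stood within the first 14 places of each other's order. The names C9 and FANCA are those that the study gave these probes and were not checked against a sequence. As deviations from slide means, 4, 4 and 5 of the 5 named probes most like MYL2, MYL6B and TNNI1 were still the 5 most alike.

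At the other end, the named probes with the lowest correlation were weaker. They were MRPL37 (-0.39), MCF2L (-0.37) and SPTB (-0.37) for MYL2, BCCIP (-0.35), ARV1 (-0.34) and NAP1L1 (-0.34) for MYL6B, and TNNT2 (-0.42), NNAT (-0.41) and C9ORF103 (-0.41) for TNNI1. TNNT2 is cardiac troponin T, a form that skeletal muscle makes before birth, and it was the lowest of all 10544 probes with TNNI1, at r of -0.31 in LM and -0.52 in SM. As deviations from slide means, 0, 1 and 1 of the 3 most opposed to MYL2, MYL6B and TNNI1 were still the 3 most opposed.

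Most measured genes of the slow fibre correlated positively with MYL2, MYL6B and TNNI1 from pig to pig. The list of 24 slow-fibre and oxidative contractile genes, chosen with earlier results of these data known, had 14 genes and 17 probes in the tables at hand. Without the probes of MYL2, MYL6B and TNNI1, the other 14 probes had a median mean r of 0.40 with MYL2, 0.31 with MYL6B and 0.45 with TNNI1, where the median over all probes was -0.01, 0.00 and 0.01. With slide means removed these medians were 0.34, 0.27 and 0.37. Of the 14 probes, 9 lay above the 95th percentile of all probes for MYL2, 13 for MYL6B and 11 for TNNI1, and none lay below the 5th.

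The closest of them to MYL2 and TNNI1 was ATP2A2, and the closest to MYL6B was HSPB6. ATP2A2 reached 0.68 with MYL2, 0.45 with MYL6B and 0.77 with TNNI1 (0.79 in LM and 0.75 in SM), and HSPB6, a small heat shock protein, reached 0.54 with MYL2, 0.51 with MYL6B and 0.57 with TNNI1. MB, myoglobin, the oxygen store of red fibres, reached 0.52, 0.47 and 0.56 in the same order. The 3 probes of MYBPC1, slow myosin-binding protein C, lay between 0.38 and 0.57 over the 3 genes. PLN, phospholamban, which restrains the pump of ATP2A2, reached 0.49 with TNNI1, but 0.75 in LM and 0.23 in SM, a difference that was not tested. FHL2, which is also used in the heart, had -0.03, 0.02 and -0.01, and S100A1 had 0.04 with MYL2, 0.24 with MYL6B, above the 95th percentile of all probes, and 0.12 with TNNI1.

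Fast-fibre genes had values closer to 0. Of the list of 17, 5 had a probe named in the tables at hand. Their median mean r was -0.04 with MYL2, 0.03 with MYL6B and 0.08 with TNNI1. PVALB, parvalbumin, the calcium buffer of fast fibres, was the lowest of the 5 with -0.22, -0.22 and -0.14. MYH1, a fast myosin heavy chain, gave -0.06, 0.03 and -0.02, and MYL1, the fast alkali light chain, gave 0.01, -0.09 and 0.08. Only PVALB with MYL2 and with MYL6B lay outside the range that holds 90% of all probes.

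**Figure D4:**
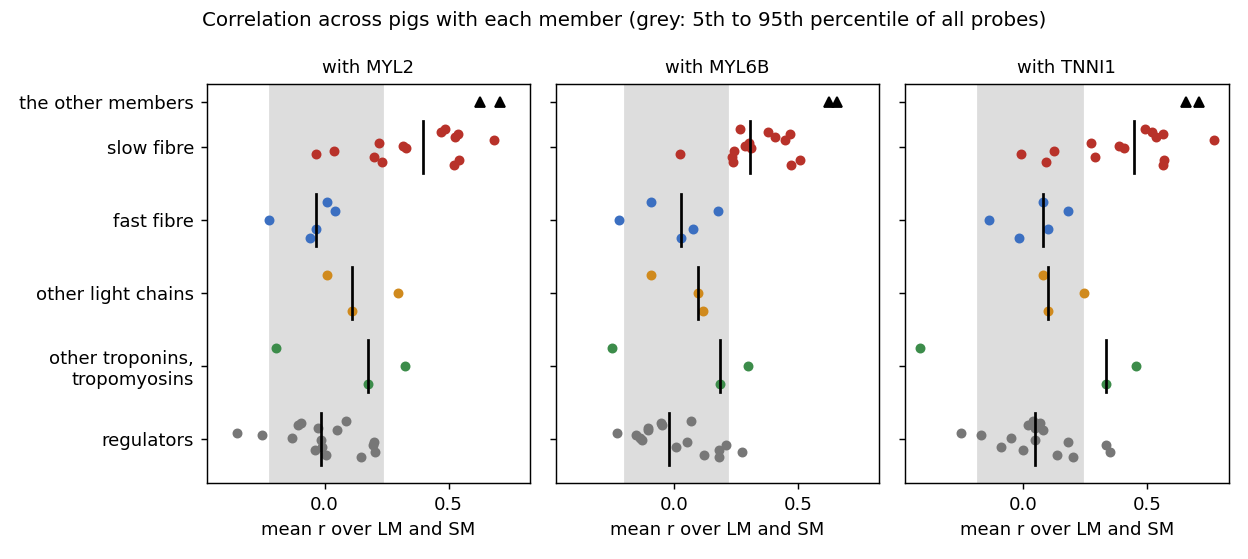
Mean Pearson's r over LM and SM between each listed probe and MYL2, MYL6B or TNNI1 (1 point for each probe, with the median of a list as a black line), and, as triangles, between MYL2, MYL6B and TNNI1 themselves. The grey band holds the 5th to the 95th percentile of all probes. Slow-fibre probes lie mostly to the right of the band (9, 13 and 11 of 14), and fast-fibre probes and regulators mostly inside it.

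Between the muscles, the slow-fibre list held probes called in both directions, as the array did: 47.7% of all probes were higher in SM and 35.7% in LM, and 3890 of the 3967 named probes passed in one direction or the other. Of its 17 probes, 11 were higher in SM, 5 were higher in LM and 1 did not pass the test in limma (the genes were named from tables chosen on these arrays), with a median LM minus SM of -0.32 against -0.07 over all probes. Besides the 3 genes, those higher in SM were ANKRD2 (-1.40 and -1.37), S100A1 (-1.15), FHL2 (-1.09), HSPB7 (-0.69), HSPB6 (-0.56), CASQ2 (-0.46) and MB (-0.33). Higher in LM were PLN (0.92), the 3 probes of MYBPC1 (0.35 to 0.75) and ATP2A2 (0.35), and CSRP3 gave 0.14 (adjusted p 0.201 in limma). ATP2A2 and MYBPC1, which followed MYL2 and TNNI1 across pigs in both muscles, were therefore higher in LM on average while MYL2 and TNNI1 were higher in SM.

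The fast-fibre list was divided as well. PVALB (-1.22), MYOZ3 (-0.82) and MYH1 (-0.57) were higher in SM, and MYL1 (0.87) and SMTNL1 (0.57) were higher in LM. All 5 passed the test in limma, as did 83.5% of all probes and 3890 of the 3967 named probes. The names come from tables chosen on these arrays, so these passes are not independent of the choice. Of the alkali light chains, the slow MYL6B gave -0.32 and the fast MYL1 gave 0.87, but the call for MYL6B was lost with the C-rich index (-0.13, adjusted p 0.419 in limma) and with a block for scan day (adjusted p 0.0584 in limma).

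**Figure D5:**
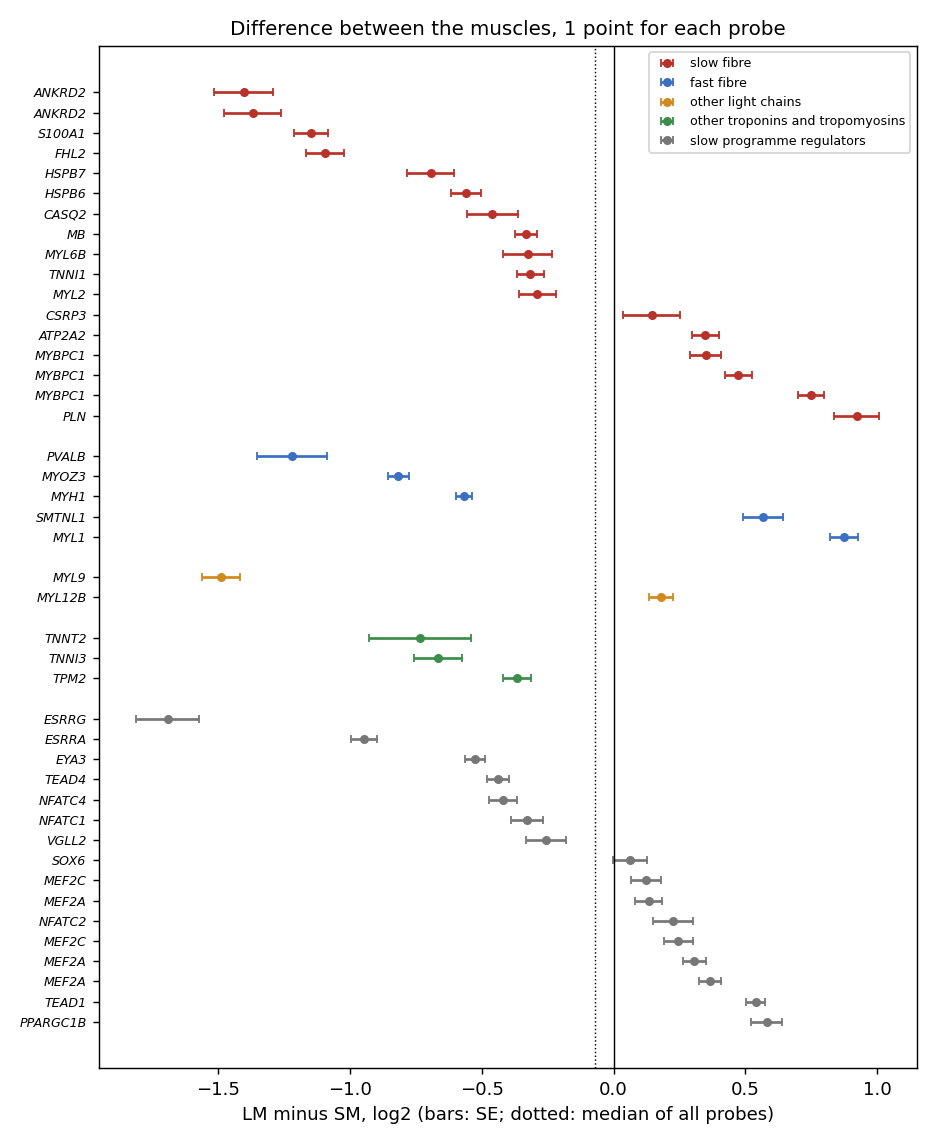
LM minus SM on the log2 scale with SE for each listed probe, grouped by list and ordered within it, with the median of all probes as a dotted line; MYL1 is drawn with the fast-fibre genes. MYL2, MYL6B and TNNI1 lie close together at about -0.3, between ANKRD2 at -1.40 and PLN at 0.92.

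Of 12 other myosin light chain genes and their kinases, 3 had a probe named in the tables at hand. MYL9, the regulatory light chain of smooth muscle, was higher in SM (-1.49), and MYL1 (0.87) and MYL12B (0.18), a regulatory light chain of non-muscle cells, were higher in LM, although MYL12B gave 0.05 (adjusted p 0.529 in limma) once the C-rich index was fitted. MYL12B had a mean r of 0.30 with MYL2 and 0.25 with TNNI1. Of 11 other troponin and tropomyosin genes, 3 had a probe named in the tables at hand, which list probes called on these arrays. All 3 were higher in SM in limma, as were 47.7% of all probes: TNNT2 (-0.73), TNNI3 (-0.66), the cardiac troponin I, and TPM2 (-0.37), the beta tropomyosin. TNNI3 had a mean r of 0.45 with TNNI1, its slow skeletal relative, while TNNT2 had -0.42.

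Regulators of the slow programme had 16 named probes of 13 genes. Of these probes, 7 were higher in SM and 8 in LM in limma, where 47.7% of all probes were higher in SM and 35.7% in LM. The other 1 did not pass the test, and the median of the 16 was 0.09. With the C-rich index fitted the calls were 6 in SM and 4 in LM, and NFATC4 turned from -0.42 to 0.13 (adjusted p 0.062 in limma). ESRRG (-1.69) and ESRRA (-0.94), nuclear receptors that drive mitochondrial genes, were the furthest towards SM, with VGLL2 (-0.26), a cofactor of the TEAD factors, and NFATC1 (-0.33), which carries calcium signals to slow-fibre genes, on the same side. PPARGC1B (0.58), a coactivator of mitochondrial genes, and TEAD1 (0.54) were the furthest towards LM. SOX6, which represses slow-fibre genes in fast fibres, gave 0.06 (adjusted p 0.348 in limma), and its mean r was -0.25 with MYL2, -0.15 with MYL6B and -0.17 with TNNI1. NFATC2 was the lowest of the 16 with all 3 genes, at -0.35, -0.23 and -0.25. Over the 16 probes the median r was -0.01, -0.02 and 0.05, close to that of all probes.

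Markers of other cells also differed between the muscles, as nearly all named probes did. Of the 3967 named probes 3890 passed in one direction or the other, since the tables that named them list probes called on these arrays. All 9 smooth muscle probes (6 of 6 genes), 2 endothelial probes (2 of 5 genes), 4 adipocyte probes (4 of 6), 3 fibroblast probes (2 of 5) and 2 nerve probes (2 of 3) were higher in SM in limma, as were 2 of 3 macrophage probes (3 of 5 genes), where 47.7% of all probes were higher in SM. The nerve probe of S100B turned from -0.88 to 0.15 (adjusted p 0.000267 in limma, higher in LM) with the C-rich index fitted, and blood had no named probe. The summed signal of the smooth muscle probes, in units of the array median, ranged from 1234 to 3786 in LM and from 1915 to 3808 in SM, and that of the adipocyte probes from 0.618 to 22.0 in LM and from 0.967 to 27.6 in SM. The endothelial sum ranged from 5.62 to 10.6 in LM and from 9.24 to 24.5 in SM, the fibroblast sum from 3.41 to 56.1 and from 8.98 to 127.6, the macrophage sum from 1.55 to 1026 and from 5.20 to 64.0, and the nerve sum from 26.9 to 1911 and from 56.0 to 217.7. The median sum was higher in SM for each of these cells, at 1773 in LM and 2608 in SM for smooth muscle, 8.69 and 13.3 for endothelium, 2.39 and 6.12 for adipocytes, 18.9 and 35.2 for fibroblasts, 4.16 and 18.8 for macrophages and 60.8 and 110.3 for nerve. The highest macrophage and nerve sums in LM were thus far above its medians. The marker read least often, an adipocyte probe, was well above background on 71.7% of the 180 arrays. The part of these cells in the difference between the muscles was not tested. Across pigs, the median r of these lists with MYL2, MYL6B and TNNI1 lay between -0.18 and 0.07, with SMTN, a smooth muscle gene, the exception at 0.26 to 0.37 for its 2 probes. For the labelled tissue, all 13 probes of skeletal muscle fibre markers were well above background on every array, with 9 higher in LM and 4 higher in SM. Their summed signal, in units of the array median, was nevertheless higher in SM, with a median of 4836 in LM and 7026 in SM.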

How the data were processed

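Each sample was 1 single-colour array of 1 muscle of 1 pig, grouped by the muscle and paired by the pig that the labels name. The scanner files hold the intensity of each spot as the authors deposited it, a processed signal with background subtracted and no scaling across arrays. A deposited table of 6903 probes on the natural log scale, centred for each array by the authors, served as an alternative. Saturated, dim (not well above background) and non-uniform spots counted as failed. Probes failing in over 50% of the arrays of a muscle were dropped, and log2 signals were centred on each array's median over all spots of the probes left. Failed spots were then set to missing, and values over 3 SD from the mean of the probe over all arrays were removed. Probes by then missing in over 50% of the arrays of a muscle were dropped as well. This follows the methods of the study, without its filter by variability and its terms for sex, batch and weight, which the labels do not give.

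Muscles and slides (3 or more arrays each) were tested with limma 3.58.1 and statmod 1.5.0 in R 4.3.3 over 10987 probes at 0.05. Correlations used Python 3.11.15, NumPy 2.4.6, pandas 2.3.3 and SciPy 1.17.1, with figures by matplotlib 3.10.9, and their 95% intervals are Fisher's. Precision is limited by the number of arrays. Tested on simulated data for LM against SM over 10987 probes, the fit recovered 85.0% of 100 probes changed by 0.3 on the log2 scale and all 100 changed by 0.6, with 6.57% of calls on unchanged probes. The simulated arrays had independent noise, no effect of slide, scan day or pig, and only 200 changed probes. In the real arrays slide and scan day go with muscle, so these rates do not carry over to the comparison of the muscles. Deviations of a pig's muscles from their means correlated over probes with a mean r of 0.08, against -0.0007 for different pigs.

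Named were the 3 genes, the listed genes that the tables name, and for each gene the 5 named probes most and the 3 least correlated with it. The genes, lists and tests were chosen with earlier results of these data known. The test of a difference in r between the muscles and the counts of shared extremes were added after the data were seen. The closing section gives the alternatives.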

Additional observations from a re-analysis of the deposited data

How the results depend on the processing

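The difference between LM and SM kept its direction for MYL2, MYL6B and TNNI1 under all 15 alternatives, from -0.41 to -0.20, -0.44 to -0.13 and -0.44 to -0.23, and passed the threshold in 43 of 45 cases. MYL6B did not pass with the C-rich index as a covariate (-0.13) or with a random block for scan day (-0.31). With the pig as a replicate block the differences were -0.29, -0.35 and -0.31, and with pig and slide together -0.29, -0.34 and -0.31, and the pairing changed none of these calls. The 6 correlations within a muscle passed under all 12 alternatives, with r from 0.47 to 0.79. The 3 between muscles passed under none. That of MYL6B ran from -0.00803 with normexp background correction to 0.21 with no removal of outlying values (adjusted permutation p 0.0568). The ratio of SDs passed under none, and changed side for MYL2 within slides (0.92) and for MYL6B centred on usable spots (1.00). For slides, MYL6B in LM passed after quantile normalization (37.2%), and TNNI1 in LM with centring on the 75th percentile (32.6%), normexp (33.8%) and usable spots (36.7%). Of the 3 probes most opposed to MYL2, MYL6B and TNNI1, 0, 1 and 1 remained within slides. Regulators called higher in LM were 5 with quantile normalization, no filter on dim probes or the scan day as a block, and 4 with the index, and other light chains called higher in LM were 1 with no filter or the index. Centring on usable spots and the alternatives for lists and slides were chosen after seeing the data. The cause of these changes was not tested.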
